A study of Mus musculus with 40 samples.

Results

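Potassium channel genes were taken as every deposited gene symbol that consists of Kcn, further letters and a number, without Kcnj8, Kcnj10 and Kcne3. Of 42037 symbols, 89 met this rule. Of these, 86 were among the 23495 genes with enough counts to be tested, and Kcnk15, Kcnk16 and Kcnn4 fell under the low-count filter. By subunit type, 65 genes encode pore-forming subunits, 10 encode modulatory Kv subunits that join other pore subunits without forming channels alone, and 14 encode auxiliary subunits.

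Potassium channels let potassium leave or enter a cell along its gradient and so set the resting potential, end action potentials and shape synaptic responses. Voltage-gated (Kv) channels open on depolarisation, inward rectifiers and 2-pore-domain channels work near rest, and calcium-activated channels answer to intracellular calcium. In photoreceptors a Kv current in the inner segment, whose channels include the modulatory subunit Kcnv2, filters the light response, and in the retinal pigment epithelium Kcnj13 is an apical inward rectifier.

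The RNA-seq data cover 40 samples, each a whole retina of a C57BL/6J mouse, in 10 groups of 4. Ages are postnatal day 17 (P17) or 19 (P19), with a control group without oxygen-induced retinopathy (OIR) and 4 OIR groups per age. OIR mice breathed 75% oxygen from P7 to P12 and then room air, a protocol in which retinal vessels are lost and later regrow abnormally. OIR eyes were injected intravitreally with 1 µl at P14. The injections held B20.4.1, which binds VEGFA, or LC10, which binds ANG2, each at 0.2 µg/µl, a bispecific antibody that joins both (B20.4.1_LC10, at 0.4 µg/µl) or control IgG, also at 0.4 µg/µl. Whether control eyes were injected is not in the labels, so any effect of injection or IgG is part of the OIR comparisons. Nor do they tell which retinas share a mouse or litter, so p-values measure the spread between these samples.

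Library totals lay between 9160000 and 25800000 expected counts, with a mean of 17100000 (SD 3520000, n = 40). Rod markers summed to between 30700 and 38700 CPM (counts scaled by library size) in the control retinas at P17. Libraries that correlated with the others less than a limit of 0.951 were anti-VEGFA P19 replicate 3, anti-ANG2 P19 replicate 1 and bispecific P19 replicate 3. Every retina of the IgG P19 and anti-VEGFA P17 groups had Y-linked counts. Every retina of the bispecific P19 and anti-ANG2 P17 groups expressed Xist, with almost no Y-linked counts. In whole retina, fewer cells of a type and less RNA per cell cannot be told apart.

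In the 8 control retinas, the inward rectifier gene Kcnj14 had the highest length-scaled level of the 89 genes, at 290 ± 67.2 TPM (transcripts scaled by length and library; SD, n = 8). Its range, 194 to 355 TPM, lay wholly above that of the next gene. Behind it came Kcne2, a single-pass auxiliary subunit (100 ± 11.5 TPM), then the photoreceptor gene Kcnv2 (85.3 ± 25.1 TPM). Kcnab2, a cytoplasmic beta subunit of Kv1 channels, and Kcnip1, a calcium-binding subunit of Kv4 channels, were at 82 ± 23.8 and 69.9 ± 4.28 TPM. From Kcne2 downward, the range of each gene over the control retinas overlapped that of the next in the order. The 6 highest genes held 51.3% ± 3.36 (SD, n = 8) of the summed TPM of the list. Over the control retinas, 26 genes had a mean above 10 TPM, 36 lay between 1 and 10 TPM, and 27 were under 1 TPM.

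**Figure D1:**
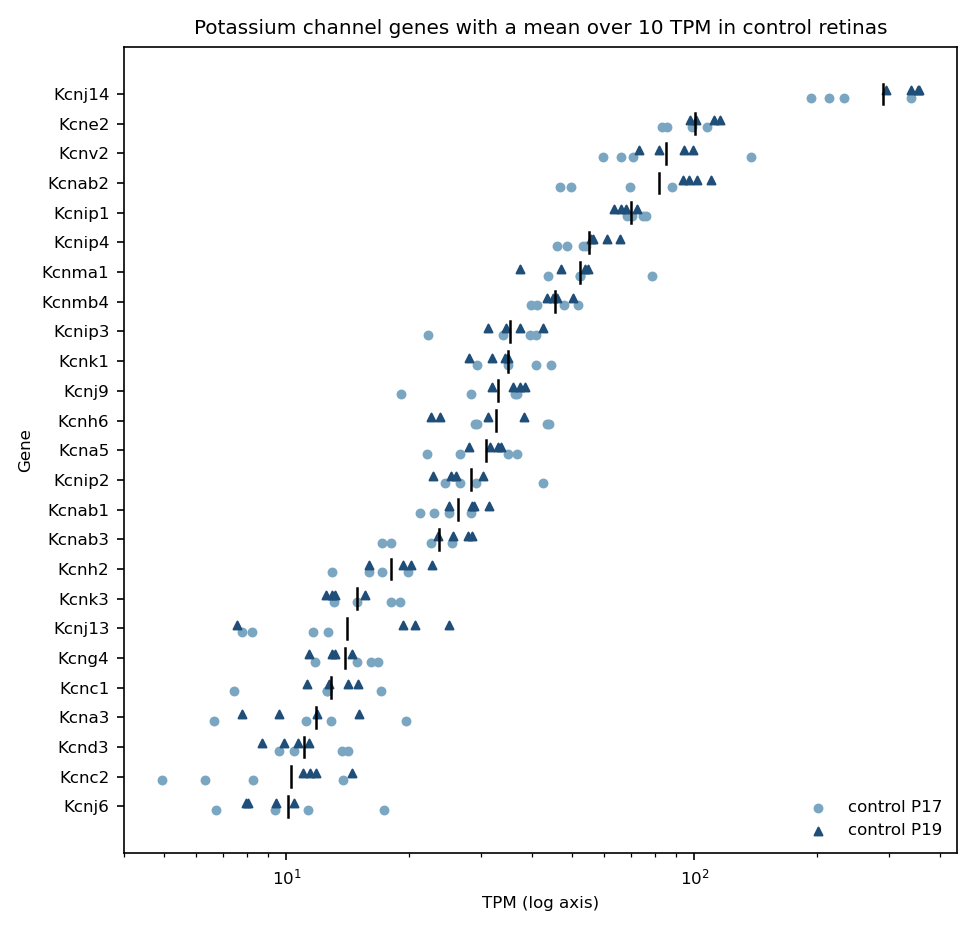
TPM (log axis) of 25 potassium channel genes with a mean over 10 TPM in control retinas; circles are control P17 retinas, triangles control P19 retinas, and the bar is the mean over the 8. Kcnj14 stands alone at the top, and most later genes overlap their neighbours.

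The subfamilies were led by genes of different level. Calcium- and sodium-activated channels were led by Kcnma1, the large-conductance pore subunit, at 52.5 ± 12.1 TPM, with its beta subunit Kcnmb4 at 45.6 ± 4.25 TPM. Among 2-pore-domain genes Kcnk1 was highest (34.9 ± 5.54 TPM), among the EAG, ERG and ELK genes Kcnh6 (32.7 ± 8.35 TPM), and in Kv1 the gene Kcna5 (30.8 ± 4.86 TPM). Kv3 and Kv4 channels were led by lower genes, Kcnc1 at 12.8 ± 2.82 and Kcnd3 at 11.1 ± 1.94 TPM. Kcnj13 stood at 14.1 ± 6.69 TPM and ranged from 7.55 to 25 TPM between control retinas. Kcnk5, a 2-pore-domain channel gene, had a mean of at most 0.99 CPM in any group of 4.

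OIR with IgG was first compared with control retinas at P17, 3 days after injection, to ask what the disease state does to these genes. One auxiliary subunit gene, Kcne2, rose, and 2 genes, Kcnj6 and Kcnip2, fell. Of the 86 genes tested, 1 was thus called higher and 2 lower by edgeR's quasi-likelihood test at a Benjamini-Hochberg adjusted p under 0.05, beside 2.11% higher and 0.251% lower of all genes tested. At an unadjusted p under 0.05, 3 were higher and 8 lower (9.73% and 6.01% of all genes). Estimates were below control for 60 genes and above for 26, and the median log2 change was -0.18, against -0.05 over all genes. With limma-trend on log2(TPM + 1) the split was 69 and 17. There the median of all genes was also lower, at -0.22, beside -0.35 for the list.

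Kcne2 was measured at 139, 183, 137 and 130 CPM in the OIR retinas and at 84.1, 82.1, 73 and 89.4 CPM in the controls. All 4 OIR retinas were above all 4 controls. The rise was 1.79-fold (147 ± 24.1 against 82.2 ± 6.82 CPM, SD, n = 4 each; edgeR adjusted p = 0.0058), and without IgG replicate 2 the adjusted p was 0.066. Summed pigment epithelium markers also stood at 1970 to 2980 CPM in these OIR retinas and at 1050 to 1730 CPM in the controls. Their list shares Rlbp1 with the Müller glia list, so the sum is not of that epithelium alone. Of the 12 pigment epithelium markers, 4 were called higher, and the defining marker Rpe65 was at 72.6 to 143 against 13.3 to 34.6 CPM. Kcnj13, the apical inward rectifier of that epithelium, was at 28.7 ± 6.25 against 17.9 ± 5.18 CPM (adjusted p = 0.43). Sums of other cell types were also higher in every OIR retina, such as rods (40400 to 48300 against 30700 to 38700 CPM) and microglia (180 to 304 against 67.2 to 93.7 CPM). Others overlapped, such as ganglion cells (1880 to 2010 against 1540 to 2420 CPM) and endothelium (112 to 178 against 95.1 to 137 CPM). The part of these other cell types in the rise of Kcne2 was not tested. With the pigment epithelium and lens marker levels as covariates, the log2 change of Kcne2 was 0.89 (adjusted p = 0.054), and with limma-trend on log2(TPM + 1) it was 0.48 (adjusted p = 0.1).

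Kcnj6 encodes a G-protein-gated inward rectifier that mediates slow inhibition in neurons. It was at 20.7, 18.1, 14.3 and 19.2 CPM in OIR and at 40.7, 29.9, 44.9 and 35.1 CPM in control retinas, without overlap. The level fell to 0.48-fold (18.1 ± 2.73 against 37.6 ± 6.56 CPM, n = 4 each; edgeR adjusted p = 0.031). For 6 of the 8 libraries, leaving that library out ended the call (highest adjusted p 0.14). With the marker covariates the log2 change of Kcnj6 was -0.64 (adjusted p = 0.67), and limma-trend did not call it (0.071). Summed bipolar cell markers were at 1010 to 1380 CPM in OIR and 1380 to 1720 CPM in control retinas, and their part in the change of Kcnj6 was not tested. Its related gene Kcnj9 was at 50.8 ± 14.2 against 68.5 ± 17.4 CPM (adjusted p = 0.34).

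Kcnip2 encodes a calcium-binding subunit of Kv4 channels. The OIR retinas had 27, 16.1, 16.2 and 20.1 CPM and the controls 35.8, 53.2, 22.3 and 34.9 CPM, so the highest OIR retina lay above the lowest control. The level fell to 0.543-fold (edgeR adjusted p = 0.048), and leaving out any 1 of 6 libraries ended the call (adjusted p up to 0.22, reached without control replicate 2), as did testing without the low-count filter (0.063). Kcnip1, of the same family, did not pass the test at 1.57-fold (135 ± 19.8 against 86.4 ± 15.4 CPM, adjusted p = 0.056), although its 4 OIR values lay above its 4 control values. Kcnip1 was called with the replicate block (adjusted p = 0.029), with the compared groups alone (0.047), without the libraries that stood apart (0.013) and by DESeq2 (0.021). The count of called potassium channel genes was 0 without IgG replicate 2. It was 1 without either IgG replicate 4 (1.92% of all genes called) or control replicate 4 (1.17%).

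Some pore subunit genes lay lower at P17 without passing the test. Kcnma1 was at 173 ± 21 against 250 ± 23.5 CPM (0.693-fold) with an edgeR adjusted p of 0.19 and no overlap between groups. Kcnd3, a Kv4 pore subunit gene, was at 36.8 ± 7.08 against 52.6 ± 6.98 CPM with the same adjusted p of 0.19. All 4 OIR values lay below all 4 control values for 7 genes and above for 3 (4.58% and 6.82% of all genes). Kcnv2 (228 ± 28.3 against 242 ± 55.3 CPM) and Kcnc1 (37.1 ± 9.24 against 40.3 ± 7.61 CPM) overlapped between groups.

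At P19, 5 genes fell in OIR with IgG against control and none rose. Among them were the 2 beta subunit genes Kcnab2 and Kcnab3, the Kv1 gene Kcna2 and the inward rectifier gene Kcnj14, whose levels in OIR were 0.559-fold to 0.635-fold of control. Among all genes tested, edgeR called 0.821% higher and 0.0979% lower, and among the 86 potassium channel genes 0 higher and 5 lower. At an unadjusted p under 0.05, 1 was higher and 16 lower (7.68% and 4.95% of all genes). All 4 OIR values lay below all 4 control values for 12 of the 86 and above for 3 (4.35% and 6.64% of all genes). Estimates were lower for 64 and higher for 22, with a median log2 change of -0.29 against -0.05 over all genes. Summed markers of some cell types, non-neuronal ones among them, separated the same groups. Müller glia markers were at 5640 to 6290 CPM in OIR and 3490 to 4050 CPM in control retinas (1 of 7 called higher), and microglia markers at 176 to 226 against 66.9 to 103 CPM (5 of 7). Other non-neuronal sums overlapped, such as endothelium (103 to 150 against 64.3 to 108 CPM) and pigment epithelium (2060 to 2540 against 1380 to 2370 CPM). The pigment epithelium and Müller glia lists share Rlbp1. The part of these cell types in the potassium channel values was not tested.

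Kcnv2, the modulatory Kv subunit of photoreceptors, was at 228, 211, 239 and 283 CPM in OIR and at 315, 285, 257 and 313 CPM in control retinas. These values overlapped, and the fold of 0.822 did not pass the test (edgeR adjusted p = 0.39). Summed rod markers were at 41000 to 57900 CPM in OIR and 47800 to 54200 CPM in control retinas.

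The beta subunits bind the inner face of Kv1 channels, carry an oxidoreductase fold and speed inactivation or aid surface expression. Kcnab2 was at 156, 147, 133 and 174 CPM in OIR and at 231, 277, 242 and 222 CPM in control retinas. The groups were apart, and the level fell to 0.627-fold (152 ± 17.2 against 243 ± 24 CPM; edgeR adjusted p = 0.01). Kcnab2 was called under all 9 alternative analyses of this comparison (adjusted p up to 0.036). The call was lost without control replicate 2 (adjusted p = 0.071) or IgG replicate 3 (0.068). Kcnab3 was at 15.3, 28.3, 22.4 and 28.4 against 42.4, 39.1, 42.6 and 44.7 CPM. It too was lower in every OIR retina than in any control and fell to 0.559-fold (edgeR adjusted p = 0.022). The call on Kcnab3 was lost without any 1 of 6 libraries (adjusted p up to 0.2). The other beta subunit gene, Kcnab1, was at 56.5 ± 16.1 against 67.5 ± 8.29 CPM (adjusted p = 0.74).

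Kcna2 encodes a Kv1 pore subunit found along axons. It was at 32.1, 44.9, 56 and 45.6 CPM in OIR and at 74.8, 82.7, 80.9 and 75.2 CPM in control retinas, with a clear gap between the groups. The level fell to 0.57-fold (44.6 ± 9.81 against 78.4 ± 3.99 CPM; edgeR adjusted p = 0.046), and 7 of the 8 single libraries, when left out, ended the call (adjusted p up to 0.29). It was not called without the low-count filter (0.051) or by limma-trend (0.088). Summed ganglion cell markers were at 1730 to 2330 CPM in OIR and 2390 to 3270 CPM in control retinas, with 1 of 9 called lower, and their part in the change of Kcna2 was not tested. Another Kv1 gene, Kcna6, was at 19 ± 3.11 against 32.3 ± 5.66 CPM, also without overlap (0.59-fold, adjusted p = 0.14), whereas Kcna5, the highest of its subfamily, was at 56.4 ± 8.64 against 61.2 ± 3.15 CPM (adjusted p = 0.91).

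Kcnj14, the highest potassium channel gene of the retina in these data, was at 402, 314, 352 and 361 CPM in OIR and at 561, 619, 513 and 558 CPM in control retinas. The 2 groups did not overlap. The level fell to 0.635-fold (357 ± 35.9 against 563 ± 43.3 CPM; edgeR adjusted p = 0.049), and leaving out any 1 of the 8 libraries ended the call (adjusted p from 0.058 to 0.16), as did testing without the low-count filter (0.057). Since all 4 IgG retinas at P19 carried Y-linked counts, a fit with these as a covariate was run, and Kcnab2 (log2 change -0.61, adjusted p = 0.036) was still called. Under that covariate Kcnab3 (-0.74, adjusted p = 0.086), Kcna2 (-0.81, 0.097) and Kcnj14 (-0.63, 0.12) were not. None of the other inward rectifier genes passed the test at P19. Kcnj13 was at 36.6 ± 4.08 against 36.2 ± 15.1 CPM (adjusted p = 1), and Kcnj9 was at 59.3 ± 16.6 against 92 ± 6.98 CPM without overlap (0.645-fold, adjusted p = 0.17).

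**Figure D2:**
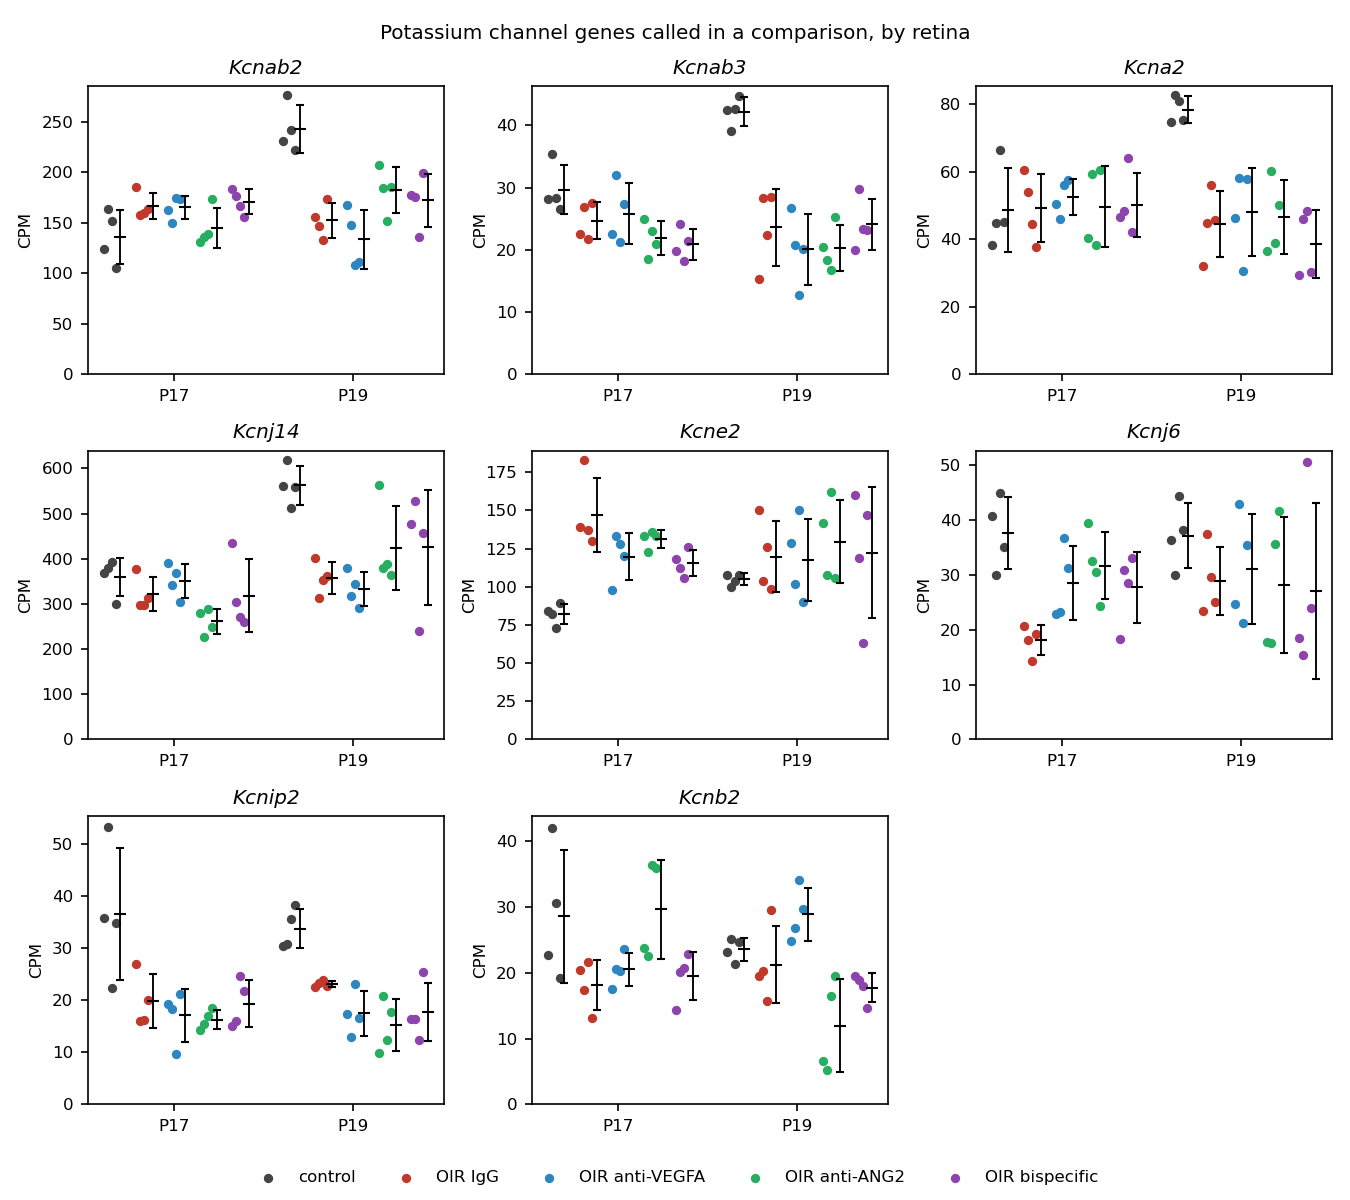
CPM of 8 potassium channel genes called in at least 1 comparison, in each of the 40 retinas by age and group; bars are mean ± SD, n = 4. Kcnab2, Kcnab3, Kcna2 and Kcnj14 show the control P19 group apart from OIR IgG P19, and Kcne2 shows OIR IgG P17 above control P17.

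No Kv4 or 2-pore-domain gene was called at P19. All 3 Kv4 genes had estimates below control (median log2 change -0.50): Kcnd1 was at 2.67 ± 0.459 against 5.98 ± 1.33 CPM (adjusted p = 0.27) and Kcnd3 at 35.1 ± 6.38 against 49.8 ± 5.4 CPM (adjusted p = 0.27). The 2-pore-domain gene Kcnk9 was at 6.56 ± 2.55 against 14.3 ± 2.13 CPM (0.458-fold, adjusted p = 0.21), while Kcnk1 was at 54.9 ± 1.07 against 47.1 ± 4.57 CPM (adjusted p = 0.78). The medians of the calcium- and sodium-activated (-0.07) and 2-pore-domain genes (-0.06) lay close to that of all genes. Of the 3 genes called at P17, Kcne2 was at 120 ± 23.1 against 105 ± 3.96 CPM (adjusted p = 0.76), Kcnj6 at 28.9 ± 6.22 against 37.2 ± 5.95 CPM (0.68) and Kcnip2 at 23.1 ± 0.529 against 33.8 ± 3.81 CPM (0.34).

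Whether the OIR difference changed between the ages was tested as an interaction, and edgeR called none of the 86 genes (0.00426% of all genes). Without adjustment, 6 were lower and 0 higher at p under 0.05 (3.5% and 2.18% of all genes). The smallest p belonged to Kcnab2, whose log2 change was 0.29 at P17 and -0.67 at P19 (difference -0.96, SE 0.20, adjusted p = 0.16). DESeq2 called that difference (adjusted p = 0.0017), as did edgeR without the 3 libraries that stood apart (0.043). The difference for Kcna2 was -0.83 (SE 0.30, adjusted p = 0.69) and that for Kcne2 was -0.66 (SE 0.26, adjusted p = 0.78). Of 55 plotted genes with a mean of at least 1 TPM over all libraries, 37 had estimates below control at both ages and 6 above at both. The matching shares of all genes were not computed, so these counts are a description only.

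**Figure D3:**
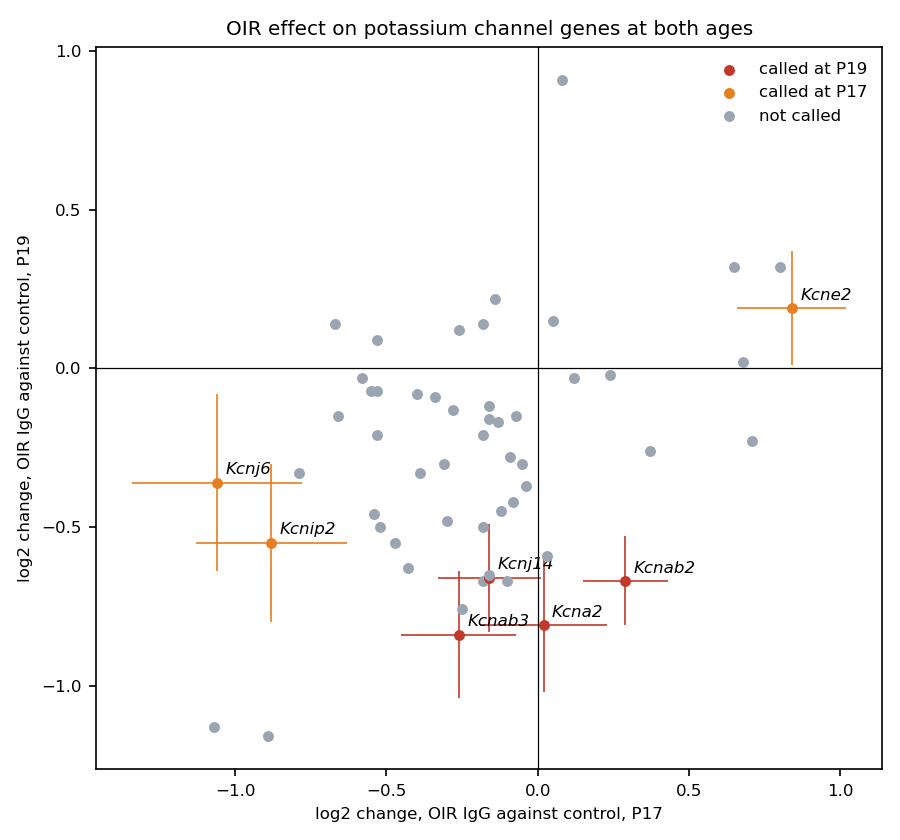
log2 change of OIR IgG against control at P17 (x axis) and P19 (y axis) for 55 potassium channel genes with a mean of at least 1 TPM; genes called at either age are coloured and named, with ± 1 SE. Most points, 37 of 55, lie below 0 on both axes, and Kcnab2 lies right of 0 at P17 and below 0 at P19. The matching share of all genes was not computed.

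The control retinas themselves differed between the ages. From P17 to P19 in control mice, Kcnab2 rose from 124, 164, 152 and 105 CPM to 231, 277, 242 and 222 CPM. Every P19 control was above every P17 control (1.78-fold, edgeR adjusted p = 0.0037), and the call was lost without control P17 replicate 4 (adjusted p = 0.091) and with limma-trend (0.071). Summed rod markers were at 47800 to 54200 CPM in the P19 controls and 30700 to 38700 CPM in the P17 controls, with 3 of 7 called higher, and the mitochondrial share of counts was 0.618% to 0.704% against 0.303% to 0.576%. Their part in the change of Kcnab2 was not tested. It was the 1 call among the 86 genes, beside 0.0638% of all genes called higher with age and 0.034% lower, and 6 were higher and 1 lower at an unadjusted p under 0.05 (3.73% and 2.29% of all genes). All 4 P19 controls were above all 4 P17 controls for 8 of the genes (3.23% of all genes). Among those 8 were Kcnj14 (563 ± 43.3 against 360 ± 42.2 CPM, adjusted p = 0.16), Kcna2 (78.4 ± 3.99 against 48.7 ± 12.3 CPM, 0.31) and Kcnab3 (42.2 ± 2.29 against 29.6 ± 3.95 CPM, 0.56). These P19 control libraries are the ones in the OIR comparison at P19, so the 2 sets of values are not independent.

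In OIR mice with IgG, no potassium channel gene was called between P17 and P19 (0.00851% of all genes, edgeR), nor by DESeq2 or limma-trend, and at an unadjusted p under 0.05, 3 were higher and 1 lower (2% and 2.69% of all genes). Kcnab2 was at 167 ± 12.7 CPM at P17 and 152 ± 17.2 CPM at P19, and Kcnj14 at 321 ± 37.8 and 357 ± 35.9 CPM. Kcnj6 was higher at P19 in all 4 retinas (28.9 ± 6.22 against 18.1 ± 2.73 CPM) without passing the test (adjusted p = 1). The summed TPM of the list was 1310 ± 261 in controls and 1040 ± 164 in OIR IgG at P17, and 1456 ± 66.7 against 1037 ± 163 at P19 (SD, n = 4 each). In controls the 6 highest genes held 51.3% of this sum. On log2(TPM + 1) the median change of all genes in OIR was also below 0, at -0.22 at P17 and -0.15 at P19 (limma-trend).

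RefSeq promoter sequences (GRCm38.p6, 250 bases before to 50 after a start site) are shown for 3 of the genes called in OIR: Kcne2, which rose at P17, and Kcnab2 and Kcna2, which fell at P19. They were searched on both strands for ACGTG, the core of the hypoxia response element, with reverse complement CACGT; hypoxia is part of the OIR model. CACGTG would hold both orientations. Capitals mark the motif in either orientation. Kcnj6 and Kcnip2, whose first listed windows did not hold the motif, are not printed, and Kcnab3, Kcnj14 and Kcnb2 are not shown. The windows are chr16:92292139-92292438 on the plus strand for Kcne2, chr4:152477500-152477799 on the minus strand for Kcnab2 and chr3:107101317-107101616 on the plus strand for Kcna2, the first listed start of each.
Kcne2: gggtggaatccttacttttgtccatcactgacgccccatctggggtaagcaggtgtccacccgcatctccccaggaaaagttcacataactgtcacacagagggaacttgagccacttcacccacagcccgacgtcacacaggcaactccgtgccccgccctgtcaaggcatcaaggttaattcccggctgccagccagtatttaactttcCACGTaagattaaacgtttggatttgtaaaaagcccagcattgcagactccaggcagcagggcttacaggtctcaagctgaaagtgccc
Kcnab2: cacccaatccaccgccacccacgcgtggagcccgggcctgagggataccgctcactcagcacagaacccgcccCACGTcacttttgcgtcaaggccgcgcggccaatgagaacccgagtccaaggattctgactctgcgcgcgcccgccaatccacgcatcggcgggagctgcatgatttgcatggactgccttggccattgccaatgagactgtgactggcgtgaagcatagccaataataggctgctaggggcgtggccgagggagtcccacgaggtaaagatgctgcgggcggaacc
Kcna2: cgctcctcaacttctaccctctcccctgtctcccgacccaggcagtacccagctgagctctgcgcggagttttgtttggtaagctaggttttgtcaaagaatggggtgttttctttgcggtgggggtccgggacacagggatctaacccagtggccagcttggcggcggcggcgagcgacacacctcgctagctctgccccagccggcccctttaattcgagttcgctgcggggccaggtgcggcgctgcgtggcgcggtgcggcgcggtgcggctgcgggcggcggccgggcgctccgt

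The motif occurred once in the Kcne2 window and once in that of Kcnab2, and not in that of Kcna2. It was found in 19.6% of 32851 promoters and in 15 of the 88 promoters (17%) of the 64 potassium channel genes that matched the table. A match in this window is a description of the letters only. Neither GGATTA, the core bound by photoreceptor homeodomain factors, nor the TATA box TATAAA was in the 3 windows. The promoter table held GGATTA in 2 of the 88 (2.27%, against 7.06% of all) and TATAAA in 5 (5.68%, against 13.6%).

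The 3 antibodies were each compared with IgG in OIR retinas to ask how blocking VEGFA, ANG2 or both alters these genes. The 4 IgG libraries of an age serve all 3 antibody comparisons, so their values are given side by side. At P17 no potassium channel gene was called with any antibody by edgeR, DESeq2 or limma-trend, nor was any other gene by edgeR (0% of all genes in each of the 3 comparisons). At an unadjusted p under 0.05, 3 were higher and 2 lower with anti-VEGFA (2.94% and 1.86% of all genes), 5 and 4 with anti-ANG2 (4.8% and 2.84%), and 2 and 1 with the bispecific antibody (2.29% and 1.63%).

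Kcnj6, which fell in OIR at P17, was at 22.8, 23.3, 36.8 and 31.2 CPM with anti-VEGFA, at 39.4, 32.5, 30.5 and 24.4 CPM with anti-ANG2 and at 18.3, 30.9, 28.6 and 33 CPM with the bispecific antibody, beside 20.7, 18.1, 14.3 and 19.2 CPM with IgG. Every retina with anti-VEGFA or anti-ANG2 was above every IgG retina, and 1 bispecific retina was not. These IgG retinas are also those of the OIR comparison that called Kcnj6 lower. Values above them are therefore not independent of that call. The folds were 1.58 (edgeR adjusted p = 1), 1.75 (0.52) and 1.53 (1), and none passed the test. In a fit of the compared groups alone, the anti-ANG2 value was called (adjusted p = 0.038).

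Other genes with small p at P17 also failed the edgeR test. Kcnma1 was at 252 ± 33.9 CPM with anti-VEGFA against 173 ± 21 CPM with IgG (1.46-fold, adjusted p = 1), and Kcnk10, a mechanosensitive 2-pore-domain channel gene, was at 2.78 ± 1.41 against 6.46 ± 3.52 CPM (1). With anti-ANG2, the ERG channel gene Kcnh7 was at 24.2 ± 2.78 against 14.4 ± 3.77 CPM (1.68-fold, adjusted p = 0.52), and Kcna10 was listed at 0 in all 4 retinas, beside 0 to 0.926 CPM with IgG (0.55). With the bispecific antibody, the inward rectifier genes Kcnj12 (9.95 ± 3.17 against 14.9 ± 2.7 CPM) and Kcnj15 (2.1 ± 1.6 against 0.187 ± 0.306 CPM) both had an adjusted p of 1. Kcne2 was at 120 ± 15.5, 131 ± 6.05 and 116 ± 8.58 CPM with anti-VEGFA, anti-ANG2 and bispecific antibody, beside 147 ± 24.1 CPM with IgG and 82.2 ± 6.82 CPM in controls. The IgG retinas are also those in which Kcne2 was called higher, so values below them are not independent of that call.

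At P19, edgeR called no potassium channel gene with any antibody against IgG, beside 0% of all genes with anti-VEGFA, 0.0979% with anti-ANG2 and 0.0468% with the bispecific antibody. At an unadjusted p under 0.05, 16 of the 86 genes were lower and 2 higher with anti-ANG2 (5.86% and 6.64% of all genes). DESeq2 and limma-trend called 0 with anti-VEGFA and 0 with the bispecific antibody. The unadjusted counts there were 6 lower and 3 higher with anti-VEGFA (6.07% and 5.06%) and 3 lower and 2 higher with the bispecific antibody (3.64% and 4.6%). The median log2 change with anti-ANG2 was -0.23, against 0.03 over all genes, with 60 estimates below and 26 above IgG. With limma-trend on log2(TPM + 1) the split was 74 and 12. There the median of all genes was also below 0, at -0.19, beside -0.32 for the list. In edgeR the median of the list was -0.05 with anti-VEGFA and -0.11 with the bispecific antibody. Every IgG retina at P19 had Y-linked counts and every bispecific retina expressed Xist, so sex and bispecific antibody cannot be told apart in that comparison.

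Kcnip3, a calcium sensor that binds Kv4 channels, was at 42.5, 36, 34.6 and 30 CPM with anti-VEGFA, at 24.3, 37.7, 42.3 and 34.8 CPM with anti-ANG2 and at 35.6, 44.2, 34 and 30 CPM with the bispecific antibody, beside 53.7, 53.4, 48 and 58.5 CPM with IgG. All 12 antibody retinas lay below all 4 IgG retinas. The folds were 0.67, 0.651 and 0.673, and the edgeR adjusted p-values were 0.31, 0.15 and 0.38, so none passed the test. DESeq2 called the anti-ANG2 value (adjusted p = 0.044), and limma-trend on log2(TPM + 1) did too (0.034).

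With anti-ANG2 at P19, the Kv1 gene Kcna5 was at 27.2, 21.4, 35.9 and 39.5 CPM against 60.4, 63.5, 43.9 and 57.7 CPM with IgG. The groups did not overlap, and the fold of 0.549 had an edgeR adjusted p of 0.14, with a call by DESeq2 (0.031) and by limma-trend (0.034). Kcnma1 was at 96.9, 118, 178 and 191 CPM against 200, 277, 218 and 232 CPM, again without overlap (0.631-fold, edgeR adjusted p = 0.17). Its value was 260 ± 46.1 CPM with anti-VEGFA and 191 ± 72 CPM with the bispecific antibody. In all, DESeq2 called 2 of the genes lower (1.66% of the genes to which it gave an adjusted p) and limma-trend called 5 lower (2.34% of all genes). Without anti-ANG2 replicate 4, edgeR called 5, namely Kcna3, Kcna5, Kcnb2, Kcnh5 and Kcnma1, all lower, beside 0.806% of all genes. Without the libraries that stood apart it called 0.

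Marker levels also differed in these anti-ANG2 retinas. Summed bipolar cell markers were at 531 to 880 CPM against 989 to 1230 CPM with IgG, with all 8 estimates lower and 1 called. Summed rod markers were at 60000 to 83400 against 41000 to 57900 CPM, and the mitochondrial share of counts was 1.01% to 1.86% against 0.461% to 0.753%. Their part in the values of Kcna5, Kcnip3 and Kcnma1 was not tested.

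With anti-VEGFA at P19, the Kv4 pore subunit gene Kcnd1 was at 4.05, 13.3, 7.94 and 9.14 CPM against 2.67, 2.15, 3.27 and 2.59 CPM with IgG. All 4 were above all 4 IgG retinas (3.22-fold, edgeR adjusted p = 0.3). The fold for Kcnd1 was 2.45 with anti-ANG2 (adjusted p = 0.23) and 2.53 with the bispecific antibody (0.44), with overlap in both. Kcnk1 was at 34.9 ± 11 CPM with anti-VEGFA against 54.9 ± 1.07 CPM with IgG (adjusted p = 0.31), and Kcnj1 was listed at 0 in all 4 IgG retinas and at 0 to 2.89 CPM with the bispecific antibody (0.44). For Kcnab2, Kcnab3, Kcna2 and Kcnj14, which fell in OIR at P19, the folds of antibody over IgG ran from 0.852 to 1.2 over the 3 antibodies, and none passed the test. The IgG retinas here are also those in which these genes were called lower. Kcnj14 was at 333 ± 38.4, 423 ± 93.5 and 425 ± 127 CPM with anti-VEGFA, anti-ANG2 and bispecific antibody, beside 357 ± 35.9 CPM with IgG. The anti-VEGFA, anti-ANG2 and bispecific effects were tested for a difference between the ages and gave no call among these genes (0% of all genes each, edgeR). Unadjusted, 2 were higher and 1 lower at p under 0.05 for anti-VEGFA (2.59% and 2.18% of all genes), 4 and 13 for anti-ANG2 (5.18% and 5.81%) and 3 and 1 for the bispecific antibody (2.55% and 1.94%). DESeq2 called Kcnma1 for anti-ANG2 (adjusted p = 0.04) and no other of the genes, and limma-trend called none. The smallest p in these tests belonged to Kcnb2 with anti-ANG2 (log2 difference -1.54, SE 0.39, adjusted p = 0.21).

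**Figure D4:**
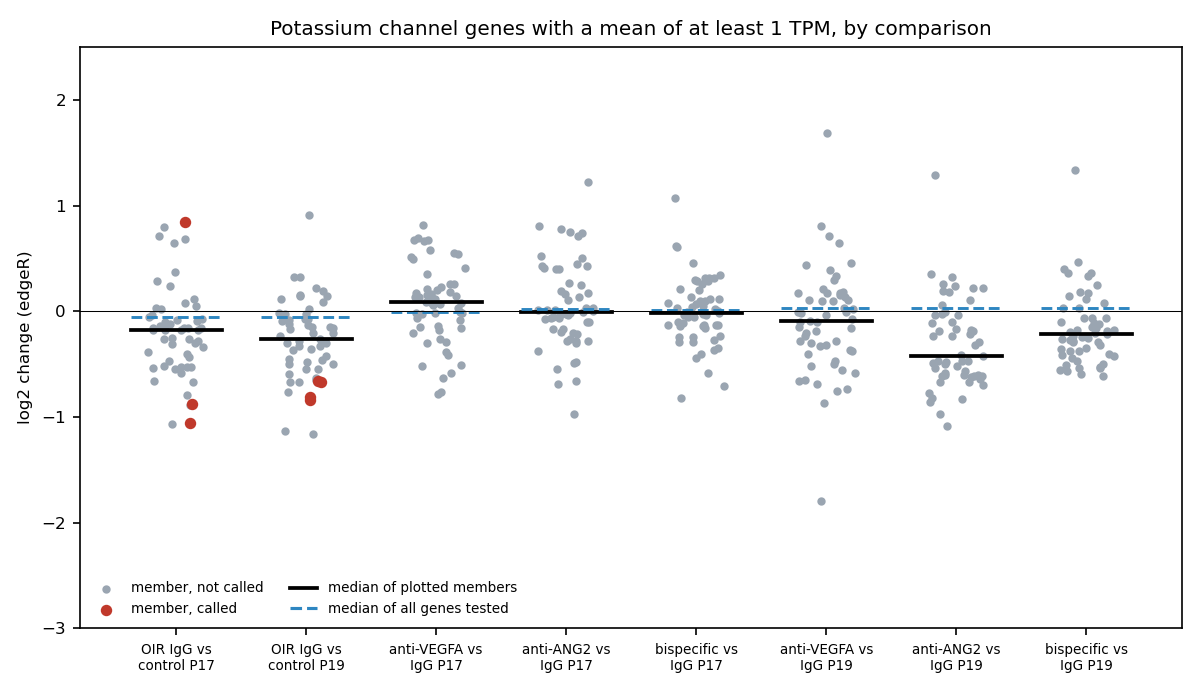
log2 change (edgeR) of 55 potassium channel genes with a mean of at least 1 TPM in the 2 OIR and 6 antibody comparisons; red points were called, black bars are medians of the plotted genes and blue dashes medians of all genes tested. Called genes occur in the 2 OIR comparisons, and the anti-ANG2 group at P19 has the lowest median, -0.42. No TPM limit applies to the blue dashes, so they are not matched to the plotted genes for level. Over all 86 potassium channel genes tested, the anti-ANG2 median at P19 was -0.23.

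The antibodies were also compared with one another. At P19, Kcnb2, a Kv2 pore subunit gene, was at 6.64, 5.24, 16.5 and 19.5 CPM with anti-ANG2 and at 24.9, 26.8, 34.2 and 29.7 CPM with anti-VEGFA. The highest anti-ANG2 retina was below the lowest anti-VEGFA retina, and 2 of the anti-ANG2 retinas were far below the others. The level with anti-ANG2 was 0.414-fold that with anti-VEGFA (12 ± 7.08 against 28.9 ± 4.04 CPM, edgeR adjusted p = 0.034). This was the 1 call of the 86, beside 0.183% of all genes called lower and 0.0553% higher. Without the libraries that stood apart (anti-ANG2 replicate 1 and anti-VEGFA replicate 3 here) the log2 change of Kcnb2 was -0.97 (adjusted p = 0.19), and the call was also lost without anti-ANG2 replicate 1 (0.22) or 2 (0.18) or anti-VEGFA replicate 2 (0.07), 3 (0.076) or 4 (0.08).

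In the same comparison, 16 of the genes were lower and 4 higher at an unadjusted p under 0.05 (7.85% and 8.92% of all genes), and the median log2 change was -0.21 against 0.01 over all genes. Estimates were lower for 55 and higher for 30, and 70 and 15 with limma-trend on log2(TPM + 1). With limma-trend the median log2 change of all genes was also below 0, at -0.17, beside -0.19 for the list. Kcnma1 (146 ± 45.7 against 260 ± 46.1 CPM, edgeR adjusted p = 0.072) and Kcnh7 (18.8 ± 5.18 against 34.5 ± 6.77 CPM, 0.099) did not overlap between these groups. DESeq2 called 8 of the genes lower and 1, Kcnab2, higher (log2 change 0.45), beside 3.61% lower and 5.28% higher of the genes to which it gave an adjusted p. Without anti-ANG2 replicate 4, edgeR called 10 lower, beside 2.93% of all genes. Summed bipolar cell markers were at 531 to 880 CPM with anti-ANG2 and 899 to 1090 CPM with anti-VEGFA, and their part was not tested.

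The other comparisons between antibodies gave no call among potassium channel genes by edgeR, beside 0% of all genes in the 3 comparisons at P17, 0.0553% for bispecific against anti-VEGFA at P19 and 0% for bispecific against anti-ANG2 at P19. Counts at an unadjusted p under 0.05 at P17 were 1 higher and 5 lower for anti-ANG2 against anti-VEGFA (1.65% and 1.14% of all genes), 0 and 0 for bispecific against anti-VEGFA (1.6% and 1.28%), and 2 and 2 for bispecific against anti-ANG2 (1.21% and 1.6%). At P19 they were 4 and 4 for bispecific against anti-VEGFA (4.95% and 4.48%) and 5 and 1 for bispecific against anti-ANG2 (4.63% and 6.97%). At P17 every anti-ANG2 retina expressed Xist and every anti-VEGFA retina had Y-linked counts, so sex and antibody cannot be told apart between them. DESeq2 called Kcnj12 for bispecific against anti-ANG2 at P19 (adjusted p = 0.029) and none in the other 4, and limma-trend called none in the 5. Kcnh7 was at 15.8 ± 6.59 CPM with the bispecific antibody and 34.5 ± 6.77 CPM with anti-VEGFA at P19 (0.458-fold, adjusted p = 0.085). Without bispecific replicate 3 edgeR called Kcnh7 (adjusted p = 0.0046), Kcnj14 (0.044) and Kcnma1 (0.049), and without anti-VEGFA replicate 1 it called Kcnh7 (0.032). Estimates for bispecific against anti-ANG2 at P19 were higher for 57 genes and lower for 29, which became 44 and 42 without the libraries that stood apart and 80 and 6 with limma-trend on log2(TPM + 1). With limma-trend the median log2 change of all genes was also above 0 there, at 0.25, beside 0.35 for the list.

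Genes that work with potassium channels or move potassium were counted beside them: 35 in all, 33 of them tested, among them channel partners (Dpp6, Amigo1), sodium pumps, chloride cotransporters, HCN channels and cyclic nucleotide-gated channels. None of the 33 was called by edgeR in any of the 16 comparisons or 4 interactions, and DESeq2 and limma-trend counts were not computed for them. In OIR at P19, 7 were lower and 2 higher at an unadjusted p under 0.05 (4.95% and 7.68% of all genes), and the median log2 change was -0.30 against -0.05 over all genes. In OIR at P17 the counts were 5 and 2 (6.01% and 9.73% of all genes) and the median was 0.02 against -0.05.

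In the GENCODE annotation of GRCm38, 4 of the genes that fell in OIR at P19 lie apart in the genome: Kcnab2 at chr4:152390742-152477871, Kcnab3 at chr11:69326258-69333042, Kcna2 at chr3:107101146-107115005 and Kcnj14 at chr7:45816460-45824782. The other called genes are Kcne2 at chr16:92292389-92298129, Kcnj6 at chr16:94748636-94997701, Kcnip2 at chr19:45791839-45816061 and Kcnb2 at chr1:15287254-15723750. Each value is for the whole gene, exons of all transcripts together.

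Some of the symbols share exons or copies with other genes, and whether reads were counted by strand is unknown from the labels and notes. Kcnj13 overlaps exons of Gigyf2, at 49.2 to 91.6 CPM. Kcnab2, Kcnab3 and Kcnj6 overlap genes that have no row in the count table. A second row for Kcnj6 held 0 to 2 counts, 0.0152% of both rows together.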

How the data were processed

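RNA of 40 whole retinas was sequenced. The authors deposited RSEM expected counts and TPM per gene symbol. The submitters' processing notes name STAR 2.7.10a, RSEM 1.3.3 and GRCm38.p4, and the annotation and the strand setting are not given in the sources used here. Values were rounded to whole numbers first, which touched 15.7% of the expected counts above 0. Genes were filtered by edgeR's default rule over the 10 groups and fitted together over all 40 libraries with TMM factors and the robust quasi-likelihood test (R 4.3.3, edgeR 4.0.16). Adjusted p-values are Benjamini-Hochberg over the 23495 genes tested, and a gene was called under 0.05. Group values are CPM with TMM library sizes; levels between genes are compared in TPM.

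The members, lists and tests were chosen with earlier results of these data known. Named are every gene called, the 3 with the smallest p in each OIR or antibody comparison with fewer than 3 calls, the highest gene of each subfamily and 12 listed genes; others named beside these were chosen after their values were seen. Some genes under this rule are not reported here, singly or in figures, and stay in the counts over the list. Alternatives were RLE size factors, no filter, the compared groups alone, a replicate block, DESeq2 1.42.0, limma-trend on log2(TPM + 1) (limma 3.58.1) and leaving out each of the 40 libraries. Marker covariates, a Y-linked covariate and leaving out the 3 libraries that stood apart (median correlation of log2(CPM + 1) more than 3 median absolute deviations low) were added after seeing the data. Total expected counts of 9160000 to 25800000 per library limit the precision of low genes most.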

Additional observations from a re-analysis of the deposited data

Results flagged for a closer look

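In groups of 4, a retina was picked out when its gap to the nearest other, relative to the group's range, exceeded Dixon's 95% critical value, which chance does in about 1 of 20 groups. Of 80 sets of 4 values, 8 genes in 10 groups, 1 was picked out. Kcnj14 was at 563 CPM in anti-ANG2 P19 replicate 1, 1 of the libraries that stood apart, beside 363 to 388 CPM.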

How the results depend on the processing

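Counts of called potassium channel genes that moved by over 1.5 times were these. Brackets give the share called of all genes with an adjusted p, in settings that called any of the list. OIR at P17, 3 in the main analysis (2.36%), gave 1 with pigment epithelium and lens covariates (0.353%), 5 with the compared groups alone (3.14%) and 5 with DESeq2 (6.56%). OIR at P19, 5 in the main analysis (0.919%), gave 3 without the low-count filter (0.418%), 2 with the Y-linked covariate (0.413%) and 9 with the compared groups alone (4.1%). Anti-ANG2 against IgG, 0 at both ages, gave 1 at P17 with the compared groups alone (1.65%), and at P19 2 with DESeq2 (5.42%) and 5 with limma-trend (2.46%). Anti-ANG2 against anti-VEGFA at P19, 1 in the main analysis (0.238%), gave 2 with the replicate block (0.515%) and 9 with DESeq2 (8.89%). It gave 0 with the marker covariates, the compared groups alone, limma-trend or the libraries that stood apart left out. Bispecific against anti-VEGFA at P19, 0, gave 2 without those libraries (1.3%), and bispecific against anti-ANG2 at P19, 0, gave 1 with DESeq2 (3.74%). Control age, 1 in the main analysis (0.0979%), gave 2 without those libraries (0.268%), with the compared groups alone (0.29%) or with DESeq2 (2.3%), and 0 with limma-trend. The OIR difference between ages, 0, gave 1 without those libraries (0.0419%) and 1 with DESeq2 (0.192%), and the anti-ANG2 difference, 0, gave 1 with DESeq2 (5.86%). The cause was not tested. Leaving out 1 library gave 0 to 4 in OIR at P17, 1 to 3 in OIR at P19, 0 to 5 for anti-ANG2 against IgG at P19, 0 to 10 for anti-ANG2 against anti-VEGFA at P19, 0 to 3 for bispecific against anti-VEGFA at P19, 0 to 1 for bispecific against anti-ANG2 at P19, 0 to 1 for control age, 0 to 4 for the anti-ANG2 difference between ages, and 0 elsewhere. The 10, the 5 and the 4 of the anti-ANG2 difference came without anti-ANG2 P19 replicate 4 (5.61%, 1.81% and 0.513%). The 4 in OIR at P17 came without IgG replicate 1 (2.61%), and the 3 in OIR at P19 without IgG replicate 2 (0.474%) or 4 (1.69%). The 3 for bispecific against anti-VEGFA came without bispecific replicate 3 (1.92%). None of the 28 single-gene results reversed under these alternatives or with 1 library left out. The median over the list changed sign in 6 of 20 comparisons, among them bispecific against anti-VEGFA at P19, from 0.12 to -0.06 without the libraries that stood apart, and control age, from 0.08 to -0.02 with limma-trend. Replicate numbers did not pair the samples: in 0 of 16 comparisons did every pair of same-numbered samples correlate above 0.1 (r from -0.17 to 0.23). With limma-trend the median of all genes moved from -0.05 to -0.22 in OIR at P17 and from 0.03 to -0.19 for anti-ANG2 against IgG at P19. Genes under 1 CPM are the ones depth limits most.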
